A study of Mus musculus with 10 samples.

Results

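The genes described here are 10 genes of dietary fat absorption and chylomicron secretion, found by their symbols among 52178 Ensembl genes in a table of RNA-seq counts from mouse pancreatic islets. They are Apoa1, Apoa4, Apoc3, Apob, Mttp, Fabp1, Fabp2, Rbp2, Mogat2 and Dgat1, and all 10 were found in the table. The islets came from male C57Bl/6 mice, retired breeders of an age not given in the sources. The exercise group (libraries exercise 6 to 10) was trained by daily treadmill bouts of 1 h, given 5 times a week over 2 weeks at 17 cm/s and an incline of 5 degrees, once 3 days of acclimatization had passed. The sedentary group (libraries sedentary 1 to 5) did not train. Islets of both groups were released with collagenase, hand-picked and plated in RPMI medium holding 11 mM glucose, and the labels give no genetic change in either group. The labels do not tie a library to its own animal, so the spread between libraries may be partly technical. The 10 genes were selected on their counts in these same libraries, as a pathway whose genes were lower in exercise than in sedentary islets, so their levels and differences are given as a description and carry no test.

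Fat from a meal is taken up by enterocytes, the absorptive cells of the small intestine, as fatty acids and monoglycerides. Inside the cell these are carried by small binding proteins, rebuilt into triglyceride in the endoplasmic reticulum and loaded onto apolipoprotein B to form chylomicrons, which also carry retinyl esters and leave through the lymph. Several of the genes are also active in the liver, where the same machinery makes very low density lipoprotein, and the healthy islet is not known as a site of chylomicron production.

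Stretches of promoter are shown as a description of the sequence near the start sites of the 10 genes, which lie on 6 chromosomes. Whether a shared sequence feature bears on their levels was not tested. RefSeq promoters (build GRCm38.p6) were at hand for 7 of the 10 genes. The word CAAAGNNCA, a form of the site read by the nuclear receptor HNF4 and its relatives, was searched on both strands in the 250 bases before the start. It was found in 4 of the 7 (Apoa4, Apob, Fabp2 and Rbp2), against 5.49% of 32851 mouse promoters. Positions count from the start in the promoter set, and some windows ran into annotated exon. The stretch before the first annotated exon base ended at -149 in Apoa4, -51 in Apoa1, -53 in Fabp1 and -49 in Apob. In Mttp it had 0 bases. The 4 stretches are printed on the plus strand with the word in capitals in either orientation, and each stops before the first base annotated as an exon.
Apoa4, chr9:46240594-46240695: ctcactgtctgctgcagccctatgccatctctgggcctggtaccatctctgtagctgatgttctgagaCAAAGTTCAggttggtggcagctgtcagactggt
Apob, chr12:7977427-7977628: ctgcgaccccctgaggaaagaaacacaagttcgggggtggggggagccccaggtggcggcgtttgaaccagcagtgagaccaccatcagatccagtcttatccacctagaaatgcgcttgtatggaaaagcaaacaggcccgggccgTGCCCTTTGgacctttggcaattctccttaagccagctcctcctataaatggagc
Fabp2, chr3:122894822-122895071: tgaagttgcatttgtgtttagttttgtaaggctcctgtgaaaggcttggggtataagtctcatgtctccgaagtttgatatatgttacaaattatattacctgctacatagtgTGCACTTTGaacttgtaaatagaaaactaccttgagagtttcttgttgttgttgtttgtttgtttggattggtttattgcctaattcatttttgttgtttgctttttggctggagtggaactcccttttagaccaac
Rbp2, chr9:98490287-98490536: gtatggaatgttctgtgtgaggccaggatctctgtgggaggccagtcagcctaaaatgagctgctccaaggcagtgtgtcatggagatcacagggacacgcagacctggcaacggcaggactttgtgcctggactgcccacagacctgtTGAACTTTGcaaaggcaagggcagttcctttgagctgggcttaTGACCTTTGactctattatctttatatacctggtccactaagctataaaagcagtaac

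Rbp2 held the word at 2 places, from -101 to -93 and from -58 to -50, counted in bases from its start. In Apoa4 it lay from -182 to -174, in Fabp2 from -137 to -129 and in Apob from -103 to -95. Of 4 other words searched in the same windows on both strands, TTTATNG, a form of the site of the intestinal factor CDX2, was in 4 of the 7 promoters (Apob, Fabp1, Fabp2 and Rbp2), against 9.81% of all. The TATA box TATAAA, which overlaps TTTATNG in Apob and Rbp2, was in 3 (Apob, Fabp1 and Rbp2), against 12.4% of all. The TATAAA of Fabp1, from -30 to -25, lay past the first base annotated as an exon. An HNF1 word and the GATA word AGATAAG were in none of the 7, against 0.371% and 2.74% of all. A match is a description of these letters and shows no binding.

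Library totals lay between 16461213 and 23222563 counts in the exercise group and between 15081768 and 20670048 in the sedentary group. Levels are CPM, counts scaled to a library of 1000000, with library sizes corrected by TMM factors (trimmed means of M-values). The libraries sedentary 1 and 2 stood apart. The summed level of 7 beta cell markers was 8013 CPM in sedentary 1 and 36766 CPM in sedentary 2, against 133398, 176310.5 and 192031 CPM in sedentary 3, 4 and 5 and between 131366 and 186457 CPM in the exercise libraries. These 2 libraries also held the highest levels of the fat absorption genes, so each difference of the 10 genes is given for all 10 libraries and for the 8 libraries without them. In bulk islet RNA, fewer cells of a type and less RNA per cell cannot be told apart.

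All 4 apolipoprotein genes were lower in every exercise library than in any sedentary library. Apoa4 encodes apolipoprotein A-IV, which the intestine secretes on chylomicrons after a fatty meal. Apoa4 (ENSMUSG00000032080) had 160.4, 44.7, 98.0, 25.7 and 268 CPM in exercise 6 to 10, against 2733, 4425, 915, 1122 and 1183 CPM in sedentary 1 to 5. Exercise 10 was the highest exercise library and exercise 9 the lowest, and the lowest sedentary level was 3.41 times the highest exercise level. The log2 fold change of exercise over sedentary was -4.12 ± 0.74 (SE of the edgeR fit), and -3.14 ± 0.61 without sedentary 1 and 2.

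Apoa1 encodes apolipoprotein A-I, the main protein of high density lipoprotein, made by liver and intestine. Apoa1 (ENSMUSG00000032083) had 78.3, 16.3, 44.3, 12.2 and 89.1 CPM in exercise 6 to 10, against 1463, 2477, 463, 372 and 552 CPM in sedentary 1 to 5. The order of the exercise libraries was that of Apoa4, with exercise 10 first and exercise 9 last. The fitted log2 fold change was -4.47 ± 0.78 (SE), and -3.24 ± 0.57 in the 8 libraries.

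Apoc3 encodes apolipoprotein C-III, an inhibitor of lipoprotein lipase that slows the clearance of triglyceride-rich particles. Apoc3 (ENSMUSG00000032081) had 4.41, 1.43, 2.59, 0.580 and 7.86 CPM in exercise 6 to 10, against 82.5, 148, 34.9, 30.8 and 40.8 CPM in sedentary 1 to 5. It was the lowest of the 4 apolipoprotein genes in CPM, and exercise 9 held 9 counts, the smallest count of any of the 10 genes in any library. The fitted log2 fold change was -4.30 ± 0.72 (SE), and -3.33 ± 0.54 in the 8 libraries.

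Apob encodes apolipoprotein B, the scaffold of which each chylomicron carries a single copy. Apob (ENSMUSG00000020609) had 37.6, 11.0, 44.9, 8.76 and 49.7 CPM in exercise 6 to 10, against 1385, 1323, 312, 209.5 and 178 CPM in sedentary 1 to 5. It alone of the 10 genes was higher in sedentary 1 than in sedentary 2, and it alone was lowest in sedentary 5. The fitted log2 fold change was -4.48 ± 0.82 (SE), and -2.91 ± 0.52 in the 8 libraries.

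Of the genes that build the particle, Mttp encodes the large subunit of microsomal triglyceride transfer protein, which loads lipid onto apolipoprotein B. Mttp (ENSMUSG00000028158) had 62.2, 23.3, 57.7, 20.7 and 44.0 CPM in exercise 6 to 10, against 1376, 1720.3, 348, 195 and 281 CPM in sedentary 1 to 5. Its exercise libraries spanned a 3.00-fold range, narrower than that of the apolipoprotein genes, which spanned between 5.68-fold (Apob) and 13.6-fold (Apoc3). The log2 fold change was -4.24 ± 0.71 (SE), and -2.70 ± 0.36 in the 8 libraries.

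Mogat2 encodes monoacylglycerol acyltransferase 2, which starts the intestinal route to triglyceride from absorbed monoglyceride. Mogat2 (ENSMUSG00000052396) had 5.76, 1.11, 5.81, 1.29 and 2.98 CPM in exercise 6 to 10, against 152, 210.4, 40.5, 21.7 and 34.9 CPM in sedentary 1 to 5. The groups did not overlap, and exercise 7 and 9 were the lowest libraries. The fitted log2 fold change was -4.75 ± 0.80 (SE), and -3.22 ± 0.47 in the 8 libraries.

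Dgat1 encodes diacylglycerol acyltransferase 1, which adds the last fatty acid to triglyceride and is active in many tissues. Dgat1 (ENSMUSG00000022555) had 19.5, 7.81, 13.0, 9.92 and 12.4 CPM in exercise 6 to 10, against 217, 342, 66.6, 42.2 and 66.4 CPM in sedentary 1 to 5. It had the smallest difference of the 10 genes with all libraries and without sedentary 1 and 2, at a log2 fold change of -3.55 ± 0.61 (SE) and of -2.19 ± 0.26. Its lowest sedentary level was 2.16 times its highest exercise level, the narrowest gap of the 10 genes, and its exercise libraries spanned a 2.50-fold range.

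The 3 small binding protein genes had the largest differences in the fit of all 10 libraries. Fabp1 encodes the liver type fatty acid binding protein, abundant in hepatocytes and in enterocytes. Fabp1 (ENSMUSG00000054422) had 47.8, 6.64, 41.4, 9.98 and 13.6 CPM in exercise 6 to 10, against 1453, 1956, 326, 169 and 352 CPM in sedentary 1 to 5. Exercise 6 and 8 were the highest exercise libraries and exercise 7 the lowest. The log2 fold change was -5.15 ± 0.90 (SE), and -3.54 ± 0.60 in the 8 libraries.

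Fabp2 encodes the intestinal type fatty acid binding protein, used as a marker of enterocytes. Fabp2 (ENSMUSG00000023057) had 51.7, 7.94, 37.3, 8.37 and 23.4 CPM in exercise 6 to 10, against 1426, 1915, 375, 191 and 368 CPM in sedentary 1 to 5. The fitted log2 fold change was -5.05 ± 0.85 (SE), and -3.57 ± 0.57 in the 8 libraries.

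Rbp2 encodes cellular retinol binding protein 2, which presents absorbed vitamin A for esterification and belongs to the same protein family as the fatty acid binding proteins. Rbp2 (ENSMUSG00000032454) had 49.3, 7.10, 37.4, 7.47 and 21.3 CPM in exercise 6 to 10, against 1177, 1772, 299, 178 and 323 CPM in sedentary 1 to 5. It followed Fabp2 closely: the ratio of Rbp2 to Fabp2 lay between 0.892 and 1.00 in the exercise libraries and between 0.797 and 0.931 in the sedentary libraries. The fitted log2 fold change was -4.93 ± 0.87 (SE), -3.42 ± 0.58 in the 8 libraries and -4.33 without sedentary 2 alone.

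**Figure D1:**
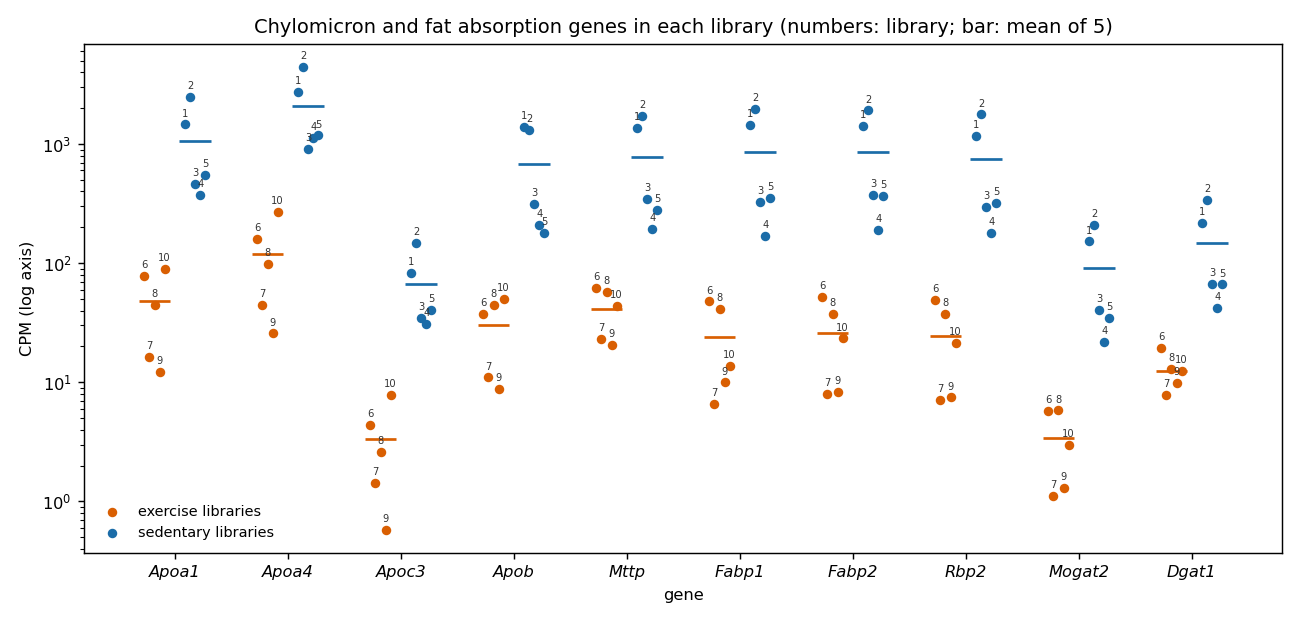
CPM of each of the 10 genes in every library on a log axis, exercise libraries left of sedentary libraries, with the library number beside each point and a bar at the mean of 5. For each gene all exercise points lie below all sedentary points, and sedentary 1 and 2 lie above sedentary 3 to 5.

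All 10 genes passed the filter on low counts and the edgeR test toward sedentary, a count that the choice of the genes fixes. Over the 15298 genes tested, 11.4% were lower and 2.44% higher in exercise at an adjusted p under 0.05 (edgeR quasi-likelihood test, Benjamini-Hochberg). In the 8 libraries, all 10 again passed, where 8.68% of 15692 genes were lower and 4.1% higher. The groups did not overlap for any of the 10, with every exercise library below every sedentary library, as for 11.4% of the genes tested. The opposite arrangement, every exercise library above, held for 6.24% of the genes tested and for none of the 10. The median log2 fold change of the 10 genes was -4.48, with a range of -5.15 to -3.55, where the median over all genes tested was 0.00 (-0.000719). Without sedentary 1 and 2 the median of the 10 was -3.23, with a range of -3.57 to -2.19, and that of all genes 0.03.

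The 10 genes together took 0.0312 ± 0.0211% of the counts in exercise libraries and 0.810 ± 0.655% in sedentary libraries (mean ± SD, n = 5 each). The highest share was 1.77% in sedentary 2 and the lowest 0.00702% in exercise 9. In the 3 sedentary libraries other than 1 and 2 the share was 0.380, 0.284 and 0.401%.

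**Figure D2:**
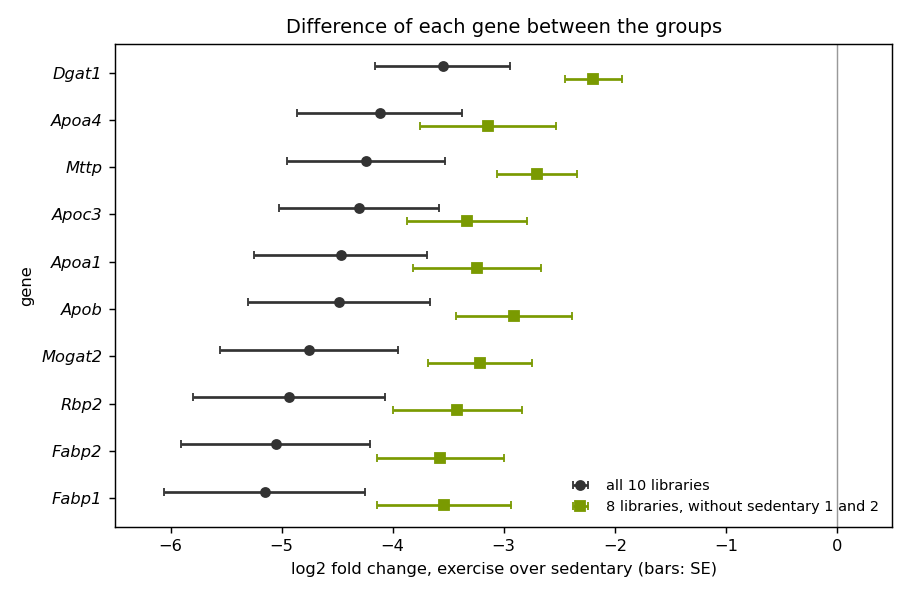
Log2 fold change of exercise over sedentary for each of the 10 genes, with the standard error as bars, in all 10 libraries (circles) and in the 8 libraries without sedentary 1 and 2 (squares). Each value lies below 0, and each is closer to 0 without these 2 libraries, with Dgat1 closest in both (-3.55 and -2.19).

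Per kilobase of the annotated transcript (GENCODE M21), the same 5 genes had the 5 highest mean levels in both groups. In exercise libraries the mean levels were 65.8 CPM per kilobase for Apoa4, 46.4 for Apoa1, 43.2 for Fabp1, 30.5 for Rbp2 and 26.7 for Fabp2. In sedentary libraries the same genes had 1144 (Apoa4), 1029 (Apoa1), 1539 (Fabp1), 934 (Rbp2) and 886 (Fabp2) CPM per kilobase. The other 5 genes in exercise libraries were Mttp at 10.5, Dgat1 at 6.64, Apoc3 at 6.42, Apob at 2.18 and Mogat2 at 1.90 CPM per kilobase. In sedentary libraries they were Mttp at 198, Apoc3 at 128, Dgat1 at 77.8, Mogat2 at 51.7 and Apob at 48.9 CPM per kilobase. Fabp2 exceeded Mttp in each of the 5 exercise and 5 sedentary libraries. They were closest in exercise 7, at 8.23 and 5.88 CPM per kilobase. Neighbours in these orders often changed places. Apoa1 exceeded Fabp1 in 2 of 5 exercise libraries, and Fabp1 exceeded Apoa4 in 3 of 5 sedentary libraries. Apob exceeded Mogat2 in 2 of 5 exercise libraries. Apoa4 exceeded Apoa1 in all 5 libraries of either group.

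The genes did not keep fixed proportions to each other. Each gene's log2 CPM was centred on its own mean over the 10 libraries and set against the mean profile of the 10 genes. Dgat1 departed most, by a root mean square of 0.74 log2 units, followed by Fabp1 at 0.54 and Apoc3 at 0.51. Mogat2 departed least, at 0.25. Dgat1 lay 1.05 and 1.55 log2 units above the mean profile in exercise 7 and 9, the libraries with the lowest levels of the set, and below it in the sedentary libraries, at -0.70 to -0.55. Mttp showed the same tendency on a smaller scale, at 0.63 in exercise 7 and 0.62 in exercise 9.

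The ratio of Dgat1 to Mogat2 shows this between 2 enzymes of the same route. It was 3.39, 7.06, 2.24, 7.70 and 4.16 in exercise 6 to 10, against 1.43, 1.63, 1.65, 1.94 and 1.90 in sedentary 1 to 5. Every exercise library lay above every sedentary library, with exercise 8 closest to them. The highest ratios rest on few Mogat2 counts, 17 in exercise 7 and 20 in exercise 9.

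Apoa1, Apoc3 and Apoa4 lie side by side within 14.8 kb on chromosome 9 (RefSeq, GRCm38.p6). They departed from the mean profile in the same direction in some libraries and not in others. In exercise 10 they stood 0.63 (Apoa1), 1.00 (Apoc3) and 1.05 (Apoa4) log2 units above the mean profile, with Apob at 0.48, while Fabp1 stood at -1.30, Fabp2 at -0.63 and Rbp2 at -0.61. In exercise 9 the 3 apolipoprotein genes were below the mean profile (-0.40 for Apoa1, -0.72 for Apoc3 and -0.51 for Apoa4), as were Fabp2 (-0.28) and Rbp2 (-0.29). In exercise 7 they differed in sign, at -0.15 for Apoa1, 0.29 for Apoc3 and 0.13 for Apoa4. The summed CPM of Apoa1, Apoc3 and Apoa4 over that of Fabp1, Fabp2 and Rbp2 was 1.63, 2.88, 1.25, 1.49 and 6.26 in exercise 6 to 10, against 1.05, 1.25, 1.41, 2.83 and 1.70 in sedentary 1 to 5. These sums, and the pair Dgat1 and Mogat2, were picked after the values were seen. Exercise 10 stood highest, and the groups overlapped. The ratio of Apoa4 to Fabp1 likewise reached 19.7 in exercise 10, where the other exercise libraries began at 2.37 and the sedentary libraries lay between 1.88 and 6.63.

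**Figure D3:**
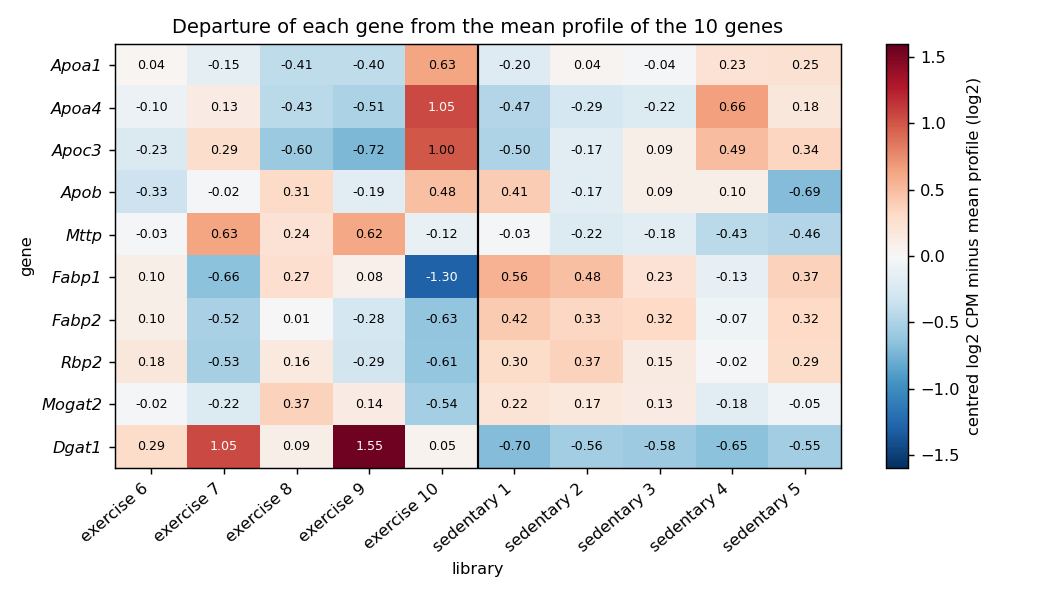
Centred log2 CPM of each gene minus the mean profile of the 10 genes, by library, exercise libraries left of the line and sedentary libraries right of it. Red marks a gene above the set's mean profile, such as Dgat1 in exercise 9 (1.55), and blue a gene below it, such as Fabp1 in exercise 10 (-1.30).

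**Figure D4:**
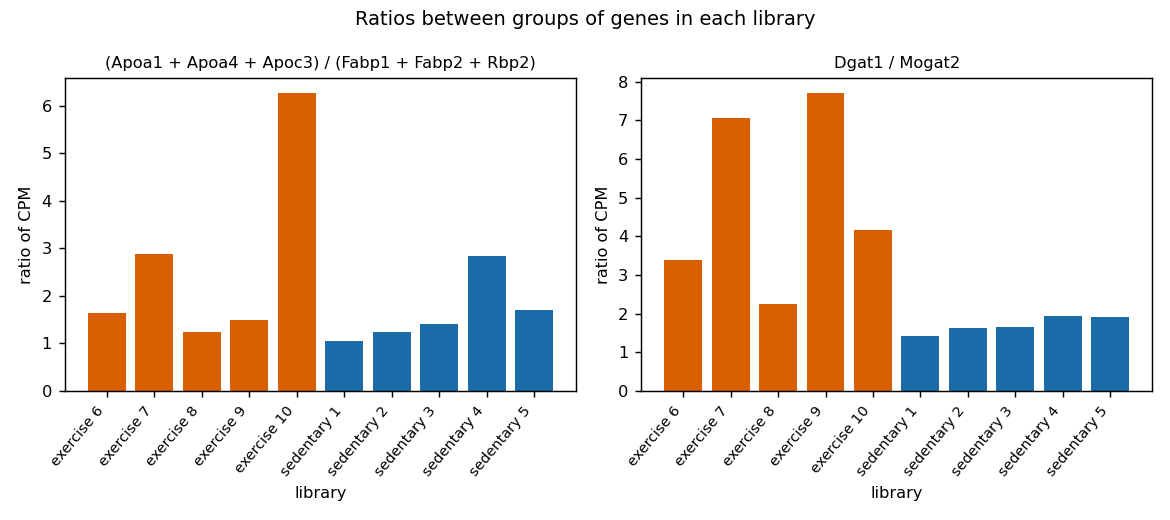
Ratio of summed CPM of the neighbouring genes Apoa1, Apoa4 and Apoc3 to that of Fabp1, Fabp2 and Rbp2 (left panel), and of Dgat1 to Mogat2 (right panel), in each library, with exercise libraries left of sedentary libraries. The first ratio is highest in exercise 10 (6.26) and overlaps between the groups, and the second puts all exercise libraries above all sedentary ones.

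Other genes of the pathway were taken from 6 lists of 67 genes, of which 62 could be tested. Of these, 2 rose, 24 fell and 36 did not pass (edgeR, adjusted p under 0.05), with a median log2 fold change of -0.73. Over all genes tested, 11.4% were lower and 2.44% higher, so the 2 that rose were near the share of the whole table. In the 8 libraries 2 rose and 21 fell, with a median of -0.30, where 8.68% of all genes were lower and 4.1% higher. These shares also stand behind the counts of the single lists, which hold between 6 and 14 tested genes. With 1 library left out, between 18 and 30 fell, and between 0 and 4 rose.

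For uptake and activation of fatty acids, 3 of 11 tested genes fell and 0 rose, against 11.4% and 2.44% of all genes. They were Slc27a4, encoding the fatty acid transport protein FATP4 (42.3 ± 5.30 CPM in exercise and 225 ± 170 CPM in sedentary libraries, SD, n = 5 each; log2 fold change -2.41, edgeR adjusted p = 0.0102), the acyl-CoA synthetase gene Acsl5 (-3.17) and the acyl-CoA binding protein gene Dbi (-2.78). Without sedentary 1 and 2 the log2 fold changes were -1.30 for Slc27a4, -1.89 for Acsl5 and -1.51 for Dbi, and all 3 passed. In the triglyceride synthesis and storage list, 4 of 14 tested genes fell and 1 rose. Gpat3, encoding a glycerol-3-phosphate acyltransferase, had a log2 fold change of -3.56, the second diacylglycerol acyltransferase gene Dgat2 -3.38 and the droplet coat gene Plin3 -3.09. Without sedentary 1 and 2 these were -2.09 for Gpat3, -2.05 for Dgat2 and -1.84 for Plin3. The gene that rose, Lpin1, encodes a phosphatidate phosphatase and was named after its value was seen. It had 51.0 ± 16.0 CPM in exercise and 20.9 ± 9.82 CPM in sedentary libraries (SD, n = 5 each). Its log2 fold change was 1.28 (edgeR adjusted p = 0.0383), and 0.91 in the 8 libraries. The call of Lpin1 was lost with library totals, with limma-voom, and without exercise 6, 7, 8 or 9 or sedentary 1 or 2 alone.

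In the lipoprotein assembly and export list, 6 of 13 tested genes fell and 0 rose. Tm6sf2, needed for full lipidation of lipoproteins, had 3.46 ± 2.04 CPM in exercise and 87.8 ± 78.5 CPM in sedentary libraries (SD, n = 5 each; log2 fold change -4.65, edgeR adjusted p = 0.00900). Cideb, a droplet protein that aids lipoprotein lipidation, had a log2 fold change of -4.89, and Apoc2, encoding the activator of lipoprotein lipase, -4.37. These values lay within the range of the 10 genes. In the 8 libraries they were -3.20 for Tm6sf2, -3.41 for Cideb and -3.23 for Apoc2, and without sedentary 2 alone Cideb was at -4.30. Sar1b, a small GTPase of the vesicles that carry chylomicrons out of the endoplasmic reticulum, fell by less (log2 fold change -0.86, edgeR adjusted p = 0.0473), a call lost in the 8 libraries (-0.34, adjusted p = 0.0663). P4hb, the disulfide isomerase that is the partner subunit of the Mttp protein, had 988 ± 121 CPM in exercise and 1365 ± 501 CPM in sedentary libraries (log2 fold change -0.47, edgeR adjusted p = 0.212). Apoe, made by macrophages and many other cells, had 141 ± 45.0 and 141 ± 83.1 CPM in exercise and sedentary libraries (log2 fold change 0.00 (0.00137), edgeR adjusted p = 0.998). In the 8 libraries P4hb was at -0.03 and Apoe at -0.35. Sar1b, P4hb and Apoe were named after their values were seen.

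Of 8 tested genes of retinol handling, 3 fell and 0 rose. Lrat, the enzyme that esterifies the retinol presented by Rbp2, had 34 counts over the exercise and 974 over the sedentary libraries, with a log2 fold change of -4.80 (edgeR adjusted p = 0.00900). Aldh1a1, which makes retinoic acid, had a log2 fold change of -3.87, and the retinol dehydrogenase gene Rdh10 one of -1.12. Over the 8 libraries Lrat was at -3.31 and Aldh1a1 at -2.35, and without sedentary 2 alone Aldh1a1 was at -3.25. The call of Rdh10 was lost without sedentary 1 and 2 (log2 fold change -0.45, edgeR adjusted p = 0.0518) and without any 1 exercise library or sedentary 1 or 2 alone (highest edgeR adjusted p = 0.0973).

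Of 10 regulators of these genes, 7 fell and 0 rose. Cdx2, the factor that sets intestinal identity, had 0.617 ± 0.567 CPM in exercise and 28.3 ± 30.0 CPM in sedentary libraries (SD, n = 5 each; log2 fold change -5.47, edgeR adjusted p = 0.00900). Creb3l3, which in liver and intestine drives apolipoprotein genes, had a log2 fold change of -4.50 and Hnf4g, an HNF4 form of the gut, -4.14. Hnf4a, the other HNF4 gene of the list, had 32.9 ± 3.85 CPM in exercise and 201 ± 201 CPM in sedentary libraries. Its log2 fold change was -2.61 (edgeR adjusted p = 0.0198), and -1.09 in the 8 libraries. Hnf4a was named after its value was seen. In the 8 libraries the values were -3.84 for Cdx2, -3.10 for Creb3l3 and -2.49 for Hnf4g. Leaving out sedentary 2 alone gave -4.65 for Cdx2, -3.89 for Creb3l3 and -3.44 for Hnf4g, and leaving out exercise 6 gave -6.09 for Cdx2. On the side of clearance, 1 of 6 tested genes rose and 1 fell, counts too small to set apart from the 2.44% and 11.4% of all genes. Vldlr, encoding the very low density lipoprotein receptor, rose to 50.1 ± 6.88 CPM in exercise, against 21.1 ± 10.4 CPM in sedentary libraries (log2 fold change 1.24, edgeR adjusted p = 0.0307), with a log2 fold change of 0.87 in the 8 libraries. Lrp1, a receptor for chylomicron remnants, fell (log2 fold change -1.57, and -0.52 in the 8 libraries), and Gpihbp1, which holds lipoprotein lipase on capillaries, had 6.25 ± 1.66 CPM in exercise and 3.72 ± 2.27 CPM in sedentary libraries (edgeR adjusted p = 0.258). The call of Vldlr was lost with scaling to library totals (edgeR adjusted p = 0.0731) and without any 1 exercise library or sedentary 2 or 5 (highest edgeR adjusted p = 0.0748), and that of Lrp1 without any 1 exercise library or sedentary 1 or 2 alone (0.0927).

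The set was put beside 12 enterocyte markers, a list chosen with earlier results of these data known. All 12 fell, where 11.4% of all genes tested were lower, with a median log2 fold change of -4.53. In the 8 libraries 12 fell, where 8.68% of all genes were lower, with a median of -3.11. Given how the list was chosen, this count does not test the intestinal label of the set. Their summed level was 504, 281, 449.8, 259 and 429 CPM in exercise 6 to 10, against 7602, 11002, 2236, 1430 and 1833 CPM in sedentary 1 to 5. The highest members were Alpi, the intestinal alkaline phosphatase gene (51.2 ± 32.7 CPM in exercise and 1167 ± 1016 CPM in sedentary libraries, edgeR adjusted p = 0.00900), and Anpep, encoding aminopeptidase N (127 ± 21.8 and 927 ± 921 CPM in exercise and sedentary libraries, adjusted p = 0.0140). The log2 fold change of Anpep was -2.87, with -2.11 without sedentary 2 and -1.44 in the 8 libraries. The summed level of the 10 fat absorption genes was 0.406 to 1.24 times that of the enterocyte markers in exercise libraries and 1.42 to 1.84 times in sedentary libraries. The part of enterocyte RNA in the differences of the 10 genes was not tested.

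Fabp1, Apoa1, Apoc3, Apob and Mttp are also liver genes, so hepatocyte markers were followed too. The summed level of 10 hepatocyte markers was 3.78 to 14.4 CPM in exercise and 4.36 to 27.6 CPM in sedentary libraries. The highest was albumin, Alb, at 2.10 ± 1.94 and 8.27 ± 6.13 CPM in exercise and sedentary libraries (edgeR adjusted p = 0.108), followed by Apoa2 at 1.06 ± 0.270 and 2.63 ± 1.45 CPM (adjusted p = 0.0534), and 0 of 4 tested markers passed. In the 8 libraries 1 of 4 passed, Apoa2 (log2 fold change -1.49, edgeR adjusted p = 0.0309). Apoa2 also passed without sedentary 1 or 3 alone (edgeR adjusted p = 0.0348 and 0.0328). Apoa2 and Alb both passed with DESeq2 (adjusted p = 0.0176 and 0.0384) and with library totals (edgeR adjusted p = 0.0139 and 0.0220). The hepatocyte sum was highest in exercise 9 and sedentary 4. In exercise 9 Fabp1, Apoa1, Apoc3, Apob and Mttp had 9.98, 12.2, 0.580, 8.76 and 20.7 CPM, against a sum of 14.4 CPM. In sedentary 4 they had 169, 372, 30.8, 209.5 and 195 CPM, against a sum of 27.6 CPM. The part of liver RNA in the differences was not tested. The ileal bile acid binding protein gene Fabp6, which marks the last part of the small intestine, had 0 counts over the exercise and 3 over the sedentary libraries, and Slc10a2, the ileal bile acid importer, had 16 and 30 counts. Neither could be tested. The other 3 ileum markers fell: Slc51a and Slc51b, the 2 chains of a bile acid exporter (log2 fold change -4.77 and -4.96), and Cubn, a receptor for vitamin B12 uptake (-3.61). Without sedentary 2 alone Slc51a was at -4.13. In the 8 libraries the values were -3.12 for Slc51a, -3.56 for Slc51b and -2.78 for Cubn. Fabp6, Slc10a2 and Cubn were named after their values were seen. The list of 5 summed to 0.846 to 3.35 CPM in exercise and 12.4 to 121 CPM in sedentary libraries. Of 6 adipocyte markers only Cidec, a droplet gene, could be tested, and it fell (log2 fold change -3.35, edgeR adjusted p = 0.0164). In the 8 libraries Cidec was at -2.13. Its call was lost without exercise 8 (edgeR adjusted p = 0.0505) and with limma-voom (adjusted p = 0.0592). Cfd, adipsin, had 0.231 ± 0.272 CPM in exercise and 0.126 ± 0.0847 CPM in sedentary libraries.

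**Figure D5:**
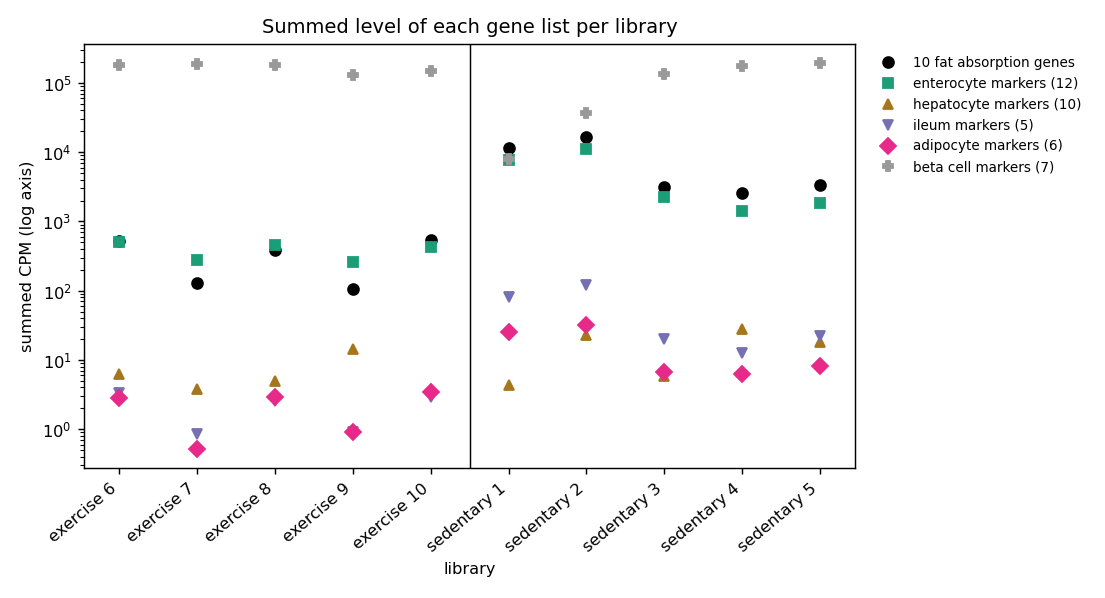
Summed CPM of the 10 fat absorption genes and of enterocyte, hepatocyte, ileum, adipocyte and beta cell markers in each library, on a log axis, with exercise libraries left of the line. The fat absorption genes and the enterocyte markers are both lower in the exercise libraries, with a ratio between them of 0.406 to 1.24 there and 1.42 to 1.84 in the sedentary libraries, hepatocyte markers stay at or below 27.6 CPM, and beta cell markers are lowest in sedentary 1 (8013 CPM) and sedentary 2 (36766 CPM).

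The genes whose profile over the 10 libraries was most like the mean profile of the set were looked for among 8658 other genes with a mean of at least 10 CPM. The root mean square difference was smallest for Cdhr5, encoding a cadherin of the microvilli of the brush border (0.12 log2 units). Ces2c, a carboxylesterase gene (0.12), Calml4, a calmodulin-like gene (0.15), and Ms4a10 (0.15) were also close. These 4 were nearer to the mean profile than any of the 10 genes themselves, of which Mogat2 was the nearest at 0.25. Cdhr5 had 18.3, 5.40, 14.4, 3.93 and 17.4 CPM in exercise 6 to 10, against 423, 688, 132, 87.3 and 124 CPM in sedentary 1 to 5.

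How reads were assigned could bear on 3 of the genes. By 31-base words, 64.5% of the Apoa4 transcript sequence in GENCODE M21 is shared with genes on the opposite strand (Gm10680 and Gm47528), 8.13% of that of Mttp with Gm43691 and Trmt10a, and 1.39% of that of Mogat2 with Gm45012. The libraries were made with a stranded kit, and no source used here says whether the counting used strand. Gm10680 had 1 count over the exercise and 61 over the sedentary libraries, against 11158 and 193419 for Apoa4, and Trmt10a had 347 and 298, against 3696 and 71065 for Mttp. The other 7 genes shared no 31-base word with another gene.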

How the data were processed

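Estimated counts per Ensembl gene were deposited by the authors for 10 libraries; fastp and kallisto are named, without versions, in the submitters' processing notes. No source used here names the build, the annotation or the summing of transcripts. Since 12.6% of the values departed from whole numbers (tolerance 1e-06), they were rounded before testing. Groups came from the labels. No 2 libraries agreed within sampling noise (45 pairs, chi-square over its degrees of freedom at least 9.59).

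Genes were tested in R 4.3.3 with edgeR 4.0.16 (quasi-likelihood test, TMM factors 0.669 to 1.20, default filter with a minimum count of 10 and a minimum total of 15, Benjamini-Hochberg threshold 0.05). The SE is the log2 fold change divided by the root of the F statistic. CPM rest on TMM-corrected sizes, and for log2 CPM 2 counts were added as prior. The lowest count of the 10 genes was 9 in exercise and 503 in sedentary libraries, so single low values in exercise libraries carry counting error. The fit was tested on simulated data.

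The members, the gene lists (6 of the pathway, 11 of cell types), the motifs and the set of 8 libraries were chosen with earlier results of these data known. Named genes were all 10 members, the 3 genes of smallest p of each pathway list (mean of at least 1 CPM), the 2 most abundant markers of each cell type and the 5 genes of most similar profile (mean of at least 10 CPM), of which 1 is not reported here. Alternatives were other scalings and filters, DESeq2 1.42.0, limma-voom (limma 3.58.1) and leaving out libraries.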

Additional observations from a re-analysis of the deposited data

Results flagged for a closer look

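Within a group of 5 libraries, 5 of 118 groups of values held a library far from the others, and chance alone gives about 1 in 20. None of the 10 fat absorption genes was among them. The rule weighs the gap between a library and its nearest neighbour. Libraries that stand high together, as sedentary 1 and 2 did for these genes, can therefore hide each other. Gpat3, of glycerolipid synthesis, was low in exercise 7 at 1.63 CPM, where the other exercise libraries lay up to 2.13 CPM. Gpihbp1, of capillary lipoprotein lipase, was high in exercise 6 at 9.16 CPM. The stomach proenzyme gene Pgc was high in sedentary 1 at 2842 CPM and, at a low level, in exercise 6 at 1.84 CPM. Tff2, a trefoil peptide gene of gastric mucous cells, was high in sedentary 2 at 1570 CPM.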

How the results depend on the processing

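The log2 fold changes of the 10 genes were below 0 in all 190 combinations of gene and alternative, between -5.56 and -2.19. Without sedentary 1 and 2 the median moved to -3.23, and leaving out 1 library gave -4.70 to -3.99; the difference in the share of counts then lay between -0.910 and -0.539 percentage points. Genes higher over the whole table numbered 644 without sedentary 1 and 2, 963 with DESeq2, 159 with library totals and 177 with limma-voom, and 132 to 889 with 1 library left out, against 374. Genes lower numbered 2829 with DESeq2, 4408 with library totals and 339 with limma-voom, and 800 to 2721 with 1 library left out, against 1745. With library totals 96.5% of calls were lower, against 82.4% with TMM, as the median of all genes shifted to -0.34; the 10 genes were then -4.36 relative to it. Upper-quartile factors shifted that median to 0.11. Of the other pathway genes, 4 (DESeq2), 0 (library totals) and 1 (limma-voom) were higher, and 41 (library totals) and 11 (limma-voom) lower. Among genes named by the rule above, limma-voom lost the calls of Gpat3, Dgat2, Lrat, Cdx2, Rdh10, Lrp1, Slc51a, Cidec and Pgc. The limma-voom adjusted p-values were, in that order, 0.0650, 0.0592, 0.0512, 0.0623, 0.0990, 0.0806, 0.0643, 0.0592 and 0.221. With 1 library left out, 0 to 4 pathway genes were higher and 18 to 30 lower. Counts of genes moved by over 1.5 times without exercise 6, 7, 8 or 9 or sedentary 2, 4 or 5 (higher) and without any 1 exercise library or sedentary 1 or 4 (lower). The causes were not tested. No paired analysis was possible because the groups share no replicate number.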

Other observations

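Other cell types were followed by their markers. Of 5 duct markers, 2 fell and 0 rose, where 11.4% of all genes tested were lower and 2.44% higher. Krt19, a keratin of duct and intestinal epithelium, had 18.7 ± 15.4 CPM in exercise and 319 ± 340.1 CPM in sedentary libraries (SD, n = 5 each; log2 fold change -4.09, edgeR adjusted p = 0.0156; -3.29 without sedentary 2 and -4.71 without exercise 6), and Spp1, osteopontin, 54.0 ± 27.4 and 42.6 ± 20.5 CPM (adjusted p = 0.538). Krt19 was at -2.37 in the 8 libraries. Of 8 acinar markers, 4 rose and 0 fell, where 2.44% of all genes were higher, and in the 8 libraries 6 rose, where 4.1% were. Ctrb1, chymotrypsinogen B1, had a log2 fold change of 1.44 (edgeR adjusted p = 0.0370), a call lost with no filter on low counts (adjusted p = 0.0624) and without exercise 6, 7, 8 or 9 or sedentary 2, 3 or 5 (highest adjusted p = 0.0839), and the elastase gene Cela2a one of 1.24 (adjusted p = 0.0593, and 0.0453 in the 8 libraries). Of 2 tested stomach markers, Pgc fell (log2 fold change -10.10, and -4.98 without sedentary 1). Its edgeR adjusted p was 0.0229, and 0.00803 in the 8 libraries without sedentary 1 and 2, where the log2 fold change was -3.85. The call of Pgc was lost without exercise 7, 8, 9 or 10 (edgeR adjusted p = 0.0624 to 0.0664) and with limma-voom (0.221). Tff2 had 407 ± 211 and 589.7 ± 553 CPM in exercise and sedentary libraries (edgeR adjusted p = 0.481). Gkn1, Gkn2, Tff1, Muc5ac and Cblif could not be tested and were named after their values were seen. In sedentary 1 they had 641, 721, 497, 107 and 45.4 CPM, and in any other library at most 2.89 CPM.

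None of 7 beta cell, 4 alpha cell, 4 macrophage and 4 endothelial markers passed, with all 10 libraries or in the 8 libraries. The insulin genes Ins1 and Ins2 had log2 fold changes of 0.59 and 0.59 (edgeR adjusted p = 0.553 and 0.573), and the glucagon gene Gcg and Ttr of alpha cells -0.35 and 0.55 (0.731 and 0.556). Without sedentary 1 and 2 these were 0.00 (0.000739) for Ins1, 0.00 (4.56e-05) for Ins2, -0.95 for Gcg and -0.04 for Ttr. The macrophage genes Csf1r and Lyz2 had 0.33 and -0.50 (edgeR adjusted p = 0.556 and 0.586), and the endothelial genes Kdr and Plvap 0.58 and 0.29 (0.362 and 0.559). In the 8 libraries they were at -0.05 (Csf1r), -0.97 (Lyz2), 0.07 (Kdr) and -0.12 (Plvap).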
